A study of Arabidopsis thaliana with 48 samples.

Results

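The class I KNOX genes of Arabidopsis thaliana, STM, KNAT1, KNAT2 and KNAT6, and the genes of their BELL partners, PNY, PNF and ATH1, were followed in RNA of shoot apices. These 7 genes were chosen by name, for their known role in the shoot meristem, with earlier results of these data known. They are 7 of the 27206 genes in the deposited count table. Plants grew in short days of 8 h light and 16 h dark at 21 C, and each library came from 15 pooled apices enriched for the apical meristem, taken 3, 4, 5 or 6 weeks after sowing. The lines were qem2, quintuple, chr4-2 and the wild type (WT, Col), with 3 libraries per line and week. The quintuple line is the svp flc ft tsf soc1 mutant, which has mutations in SVP, FLC, FT, TSF and SOC1, and qem2 carries the same 5 mutations and a further one that the labels do not name. The chr4-2 line is titled sail_783c05, an insertion line in CHR4, which encodes a chromatin remodeller, and its labels name no other mutation. Each line stands for 1 combination of alleles. CHR4 averaged 103 ± 1.29 CPM in chr4-2 and 230 ± 10.8 CPM in WT at 6 weeks (SD, n = 3 each).

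KNOX proteins are homeodomain transcription factors of the TALE class that keep cells of the shoot apical meristem undifferentiated, and they are absent from the founder cells of leaves. They enter the nucleus and bind DNA as heterodimers with BELL proteins, a sister branch of the TALE class. In the shoot the pairs raise cytokinin synthesis and lower gibberellin levels, and loss of PNY and PNF together leaves a plant unable to flower. STM is required to form and keep the meristem, KNAT1 (also BREVIPEDICELLUS) shapes internodes and pedicels, and KNAT6 and KNAT2 act at organ boundaries. PNY (also BELLRINGER, RPL in the RefSeq names) and PNF (BLH8) are close paralogs, and ATH1 acts at the base of the vegetative rosette shoot.

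The genes lie at chr1:23058582-23062063 (STM, AT1G62360), chr4:5147699-5151159 (KNAT1, AT4G08150), chr1:26576486-26582879 (KNAT2, AT1G70510), chr1:8297241-8302651 (KNAT6, AT1G23380), chr5:395567-399125 (PNY, AT5G02030), chr2:11921350-11924748 (PNF, AT2G27990) and chr4:15914670-15918153 (ATH1, AT4G32980) in build TAIR10.1. KNAT2 and PNY are on the plus strand and the others on the minus strand, and none of the 7 overlaps another annotated gene. STM, PNY and PNF have 4 exons and the other members have 5. The 250 bases just upstream of the annotated start of each KNOX gene are shown because their RNAs moved together over the weeks, as given below. They are RefSeq sequence of build TAIR10.1, written along the gene's strand, at chr1:23062064-23062313 for STM, chr4:5151160-5151409 for KNAT1, chr1:26576236-26576485 for KNAT2 and chr1:8302652-8302901 for KNAT6. Capitals mark TGAC, the core that TALE homeodomains bind, and GAGAGA, a repeat, each on either strand (GTCA and TCTCTC on the other).
STM: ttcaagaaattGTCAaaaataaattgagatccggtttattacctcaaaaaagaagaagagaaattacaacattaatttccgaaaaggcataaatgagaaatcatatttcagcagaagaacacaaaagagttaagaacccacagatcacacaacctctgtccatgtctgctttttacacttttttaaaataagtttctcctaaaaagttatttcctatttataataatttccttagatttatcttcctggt
KNAT1: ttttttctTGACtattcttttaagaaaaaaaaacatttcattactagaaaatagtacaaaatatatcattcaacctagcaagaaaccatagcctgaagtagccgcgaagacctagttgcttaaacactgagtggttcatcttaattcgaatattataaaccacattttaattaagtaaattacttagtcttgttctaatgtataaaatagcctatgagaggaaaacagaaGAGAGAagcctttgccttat
KNAT2: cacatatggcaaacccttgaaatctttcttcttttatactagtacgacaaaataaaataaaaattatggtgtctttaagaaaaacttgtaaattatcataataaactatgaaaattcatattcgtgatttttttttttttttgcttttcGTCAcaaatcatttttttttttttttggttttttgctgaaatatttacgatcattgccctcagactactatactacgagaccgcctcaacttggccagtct
KNAT6: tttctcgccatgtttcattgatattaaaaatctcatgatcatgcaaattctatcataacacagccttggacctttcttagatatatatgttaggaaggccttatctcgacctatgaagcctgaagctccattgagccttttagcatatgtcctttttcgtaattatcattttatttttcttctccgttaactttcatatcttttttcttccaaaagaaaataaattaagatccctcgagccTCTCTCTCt

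The TGAC core began 239 bases before the start of STM, 242 before KNAT1 and 101 before KNAT2. With PNY, 4 of the 7 windows held it, and 75.5% of 27443 windows of 250 bases upstream of nuclear protein-coding genes held it too. GAGAGA stood 20 bases before the start of KNAT1 and, as an overlapping pair, 9 and 7 bases before that of KNAT6. It was in 3 of 7 windows, PNY included, and in 20.6% of all windows. The longer TALE site TGACAG, which contains TGAC, and the telobox AAACCCTA were in 0 of the 7 windows, against 5.86% and 4.49% of all windows. A match describes these letters and is not evidence of binding.

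KNAT2 and KNAT6 are close paralogs, and their coding sequences share a run of 41 bases, at chr1:26582032-26582072 on the plus strand and chr1:8297575-8297615 on the minus strand of TAIR10.1. It is shown because a read wholly within it cannot be assigned to either gene.
KNAT2 and KNAT6: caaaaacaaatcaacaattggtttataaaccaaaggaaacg
No other pair of members shared a run of over 20 bases.

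Libraries held 2.91 M (qem2 6 weeks replicate 1) to 19.7 M assigned reads, with a median of 14.2 M. One column, labelled replicate 3 of qem2 at 5 weeks, repeats replicate 3 of quintuple at that week for each gene and was dropped, so that qem2 at 5 weeks had n = 2 among 47 libraries. Levels are CPM, reads scaled to the library size after TMM normalization, as mean ± SD with n = 3 unless stated. A test is edgeR's quasi-likelihood test with Benjamini-Hochberg adjusted p over 19566 genes, 2-sided, and a gene rose or fell where adjusted p was under 0.05. All 7 members passed the filter on low counts. The share of all tested genes whose groups did not overlap was not counted, so statements of overlap are descriptions. Within groups, library by library correlations were lowest for WT 5 weeks replicate 3 (mean r = 0.968). Of the 47 libraries, 4 were the lowest of their group for all 7 members (replicate 1 of WT and of chr4-2 at 4 weeks, WT 5 weeks replicate 3 and quintuple 6 weeks replicate 1). The libraries highest for all 7 members were replicate 2 of WT and of chr4-2 at 4 weeks.

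Per kilobase of exon, STM was the most abundant member, with a median of 59.6 CPM per kb over the 47 libraries and a range of 24.1 to 102.7. ATH1 followed at 43.7, KNAT1 at 37.8, KNAT6 at 28.0 and PNY at 25.7 CPM per kb. KNAT2 and PNF were the scarcest, at 8.72 and 4.65 CPM per kb, and held the lowest 2 ranks in every group. STM ranked first or second of the 7 in every group and ATH1 in the top 3. In WT at 6 weeks STM averaged 67.2 and ATH1 47.7 CPM per kb, while at 3 weeks ATH1 had the highest mean, 35.5 CPM per kb, with STM at 26.3.

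**Figure D1:**
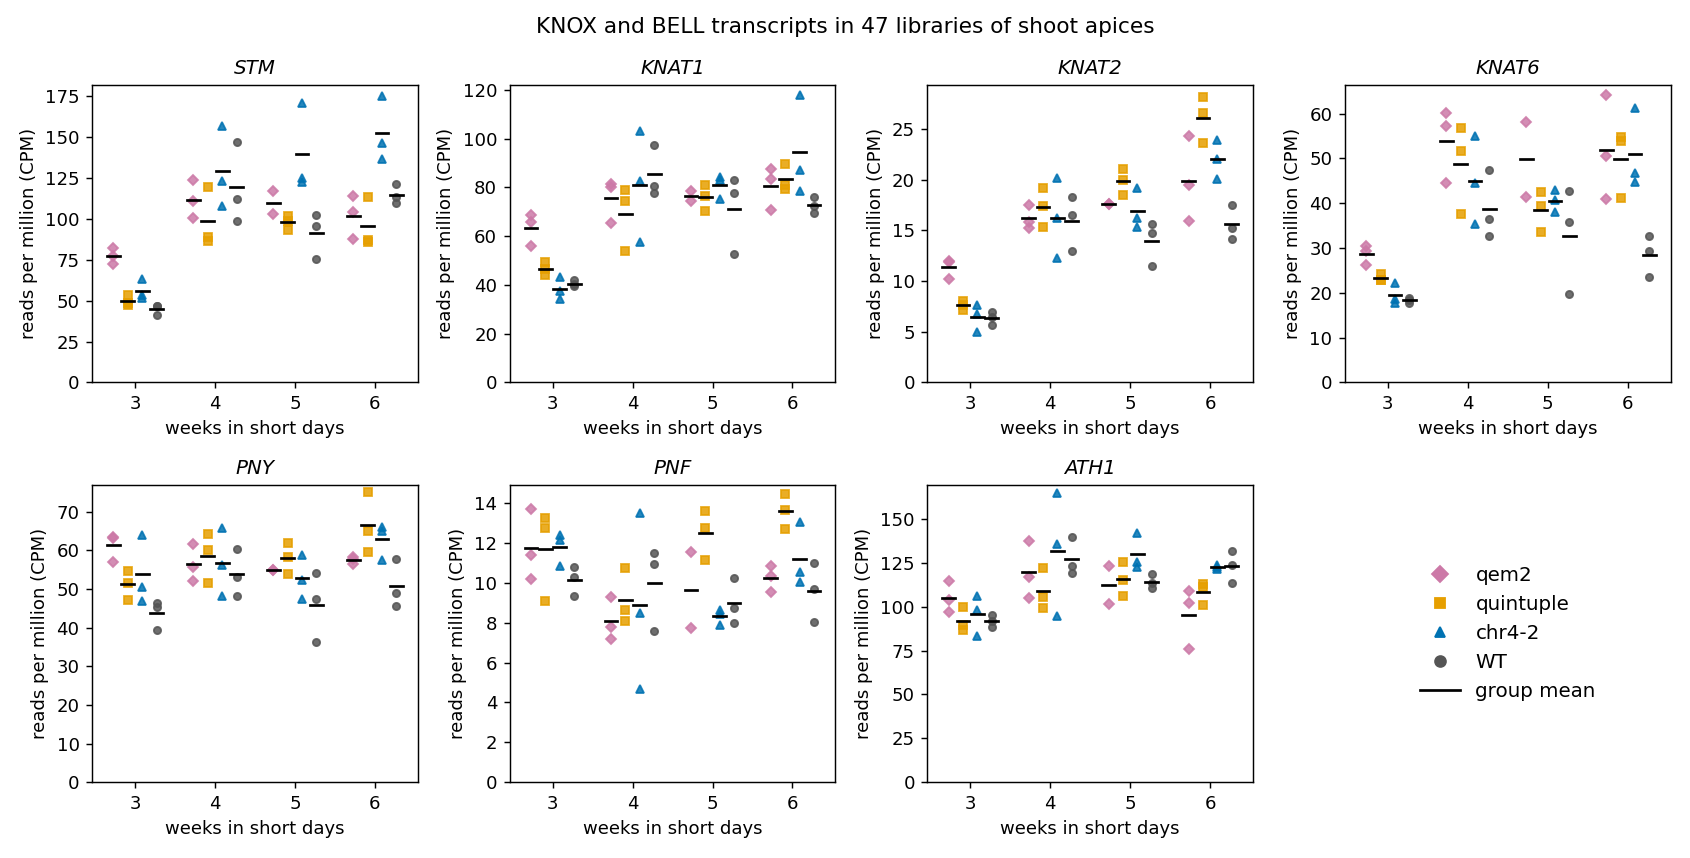
Levels of the 7 members in CPM by weeks in short days, with 1 point per library and a black bar at each group mean for qem2, quintuple, chr4-2 and WT. The means of the 4 KNOX genes are lowest at 3 weeks in every line. No BELL gene shows a step of that kind in every line.

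STM, the gene that sets the meristem, was lowest at 3 weeks in each line. The qem2 libraries had 72.6, 77.5 and 82.2 CPM at 3 weeks, 111, 124 and 100.3 at 4 weeks, 117 and 103 at 5 weeks and 104, 87.8 and 114 at 6 weeks. The quintuple libraries had 53.6, 48.5 and 47.1 CPM at 3 weeks, 89.0, 119 and 86.7 at 4 weeks, 98.7, 102 and 93.0 at 5 weeks and 85.9, 86.9 and 113 at 6 weeks. In both lines every library of 4 to 6 weeks was above every library of 3 weeks, and qem2 had the highest 3-week level of the 4 lines. The chr4-2 libraries had 63.0, 51.5 and 53.6 CPM at 3 weeks, 108, 157 and 123 at 4 weeks, 123, 170.4 and 125 at 5 weeks and 175, 136 and 146 at 6 weeks. WT libraries had 41.1, 46.6 and 46.9 CPM at 3 weeks, 98.3, 147 and 112 at 4 weeks, 102, 95.8 and 75.5 at 5 weeks and 113, 121 and 109 at 6 weeks. Later libraries of chr4-2 and WT also lay above their own 3-week libraries, and the highest single value was in chr4-2 at 6 weeks.

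KNAT1, the BREVIPEDICELLUS gene, had 55.9, 65.6 and 68.7 CPM at 3 weeks, 80.0, 81.4 and 65.4 at 4 weeks, 78.5 and 74.5 at 5 weeks and 87.5, 70.7 and 83.4 at 6 weeks in qem2. In quintuple it had 49.2, 46.6 and 43.9 CPM at 3 weeks, 74.6, 78.9 and 53.9 at 4 weeks, 70.4, 76.3 and 80.9 at 5 weeks and 79.5, 80.8 and 89.5 at 6 weeks. The qem2 groups of 4 and 3 weeks overlapped, and those of quintuple did not. In chr4-2 it had 43.5, 34.1 and 37.5 CPM at 3 weeks, 57.7, 103 and 82.6 at 4 weeks, 84.3, 83.2 and 75.2 at 5 weeks and 118, 78.3 and 87.0 at 6 weeks. In WT it had 40.4, 41.9 and 39.5 CPM at 3 weeks, 77.6, 97.6 and 80.7 at 4 weeks, 77.6, 82.9 and 52.5 at 5 weeks and 72.3, 76.1 and 69.4 at 6 weeks. All later libraries of chr4-2 and WT were above those of 3 weeks.

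KNAT2 was the scarcest KNOX gene, and the ratio between its highest and lowest group mean was the largest of the 7. In qem2 it had 11.9, 10.2 and 11.8 CPM at 3 weeks, 15.9, 17.4 and 15.2 at 4 weeks, 17.6 and 17.5 at 5 weeks and 24.3, 15.9 and 19.5 at 6 weeks. In quintuple it had 8.05, 7.14 and 7.62 CPM at 3 weeks, 15.3, 17.4 and 19.2 at 4 weeks, 18.5, 19.9 and 21.0 at 5 weeks and 23.6, 26.5 and 28.2 at 6 weeks. Its group means were highest in quintuple at 6 weeks and lowest in WT at 3 weeks. The chr4-2 libraries had 6.77, 4.94 and 7.65 CPM at 3 weeks, 12.3, 20.2 and 16.2 at 4 weeks, 15.3, 19.2 and 16.2 at 5 weeks and 23.9, 22.0 and 20.1 at 6 weeks. In WT it had 5.66, 6.99 and 6.46 CPM at 3 weeks, 12.9, 18.3 and 16.5 at 4 weeks, 14.8, 15.6 and 11.5 at 5 weeks and 17.5, 15.2 and 14.2 at 6 weeks. In all 4 lines the 3-week libraries were below every later library of the same line.

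KNAT6, a boundary gene, had 30.5, 29.4 and 26.1 CPM at 3 weeks, 44.5, 57.2 and 60.1 at 4 weeks, 58.0 and 41.5 at 5 weeks and 50.6, 40.9 and 64.1 at 6 weeks in qem2. In quintuple it had 24.2, 23.0 and 22.9 CPM at 3 weeks, 37.6, 51.7 and 56.8 at 4 weeks, 33.6, 39.3 and 42.6 at 5 weeks and 41.2, 53.8 and 54.9 at 6 weeks. No later library of these lines fell within the range of 3 weeks. In chr4-2 it had 17.7, 18.7 and 22.3 CPM at 3 weeks, 35.3, 55.0 and 44.5 at 4 weeks, 38.1, 42.9 and 40.7 at 5 weeks and 61.2, 46.8 and 44.7 at 6 weeks. In WT it had 18.3, 18.9 and 17.8 CPM at 3 weeks, 32.6, 47.3 and 36.4 at 4 weeks, 35.9, 42.7 and 19.6 at 5 weeks and 32.6, 23.6 and 29.3 at 6 weeks. The groups of 6 and 4 weeks overlapped in chr4-2, while in WT they did not, with the nearest libraries of both weeks at 32.6 CPM.

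The group means of the BELL genes differed less in relative terms than those of the KNOX genes. PNY spanned 36.2 CPM (WT 5 weeks replicate 3) to 75.0 CPM (quintuple 6 weeks replicate 3) over the 47 libraries. PNF spanned 4.68 CPM (chr4-2 4 weeks replicate 1) to 14.4 CPM (quintuple 6 weeks replicate 3). ATH1 spanned 75.6 CPM (qem2 6 weeks replicate 3) to 165 CPM (chr4-2 4 weeks replicate 2). When the 16 groups were ordered by mean, all 15 pairs of neighbouring groups overlapped for PNY, PNF and ATH1. For STM, KNAT1 and KNAT2 13 of 15 neighbouring pairs overlapped, and for KNAT6 14 of 15. WT at 3 weeks was the lowest group for STM, KNAT2, KNAT6, PNY and ATH1.

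The KNOX genes rose between 3 and 4 weeks of growth in each line, except KNAT1 in qem2. In qem2 at 4 against 3 weeks 4 of 7 members passed the test, where 43.9% of tested genes did. STM, KNAT2 and KNAT6 rose by log2 0.53, 0.51 and 0.91 (adjusted p = 0.00469, 0.00847 and 0.000503), while KNAT1 stood at log2 0.25 (adjusted p = 0.203). PNF fell in qem2, with 7.80, 9.30 and 7.17 CPM at 4 weeks and 10.2, 11.4 and 13.7 CPM at 3 weeks (log2 -0.54, 95% interval -0.97 to -0.12, adjusted p = 0.0345). The PNF groups did not overlap, but the call ended without qem2 3 weeks replicate 3 or 4 weeks replicate 1 or 3 (adjusted p 0.0264 to 0.155 over the 6 fits). That of KNAT2 in qem2 ended without replicate 2 of 3 or of 4 weeks (0.0154 to 0.0751). In quintuple 4 of 7 members rose, all KNOX genes, where 45.4% of tested genes passed. STM rose by log2 0.98 (adjusted p = 4.27e-06), KNAT1 by 0.57 (0.00428), KNAT2 by 1.19 (5.75e-07) and KNAT6 by 1.06 (8.93e-05). The KNOX medians were log2 0.52 in qem2 and 1.02 in quintuple, against 0.01 and 0.02 for all tested genes. In bulk samples a change in the number of cells of a type and a change in RNA per cell cannot be told apart.

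In chr4-2 at 4 against 3 weeks 5 of 7 members rose, the 4 KNOX genes and ATH1, where 29.9% of tested genes passed. STM rose by log2 1.21 (adjusted p = 4.75e-07), KNAT1 by 1.09 (8.14e-06), KNAT2 by 1.34 (4.19e-07) and KNAT6 by 1.19 (7.85e-05). ATH1 had 94.5, 165 and 136 CPM in chr4-2 at 4 weeks, against 83.5, 98.3 and 106 CPM at 3 weeks, and these groups overlap. Its call (log2 0.46, adjusted p = 0.00933) ended without chr4-2 4 weeks replicate 2, with adjusted p of 8.05e-05 to 0.141 over the fits that leave out 1 of the 6 libraries. It also ended in the fit of the 6 libraries alone (adjusted p = 0.125). PNF stood at log2 -0.40 in chr4-2 (adjusted p = 0.148) and passed without that same library (0.00775 to 0.804). The medians were 1.20 for the KNOX genes, 0.09 for the BELL genes and 0.02 for all tested genes.

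In WT at 4 against 3 weeks 5 of 7 members rose, where 34.9% of all tested genes passed the test. These were STM (log2 1.40, adjusted p = 3.19e-08), KNAT1 (log2 1.07, adjusted p = 6.61e-06), KNAT2 (log2 1.31, adjusted p = 4.65e-07), KNAT6 (log2 1.07, adjusted p = 0.000212) and ATH1 (log2 0.47, adjusted p = 0.006). ATH1 had 119, 139 and 123 CPM at 4 weeks in WT, against 91.6, 88.1 and 95.2 CPM at 3 weeks, with no overlap. PNY missed the threshold in WT (log2 0.29, adjusted p = 0.0695) and passed without WT 4 weeks replicate 1 (0.0401 to 0.272). The median log2 change was 1.19 for the KNOX genes and 0.29 for the BELL genes, against 0.03 for all tested genes.

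Between later weeks no step of 1 week passed for any member. The change from 4 to 6 weeks was not tested. KNAT2 in quintuple averaged 17.3 CPM at 4 weeks and 26.1 CPM at 6 weeks. KNAT6 in WT went the other way, from 38.8 to 28.5 CPM. Over the steps 5 against 4 and 6 against 5 weeks in the 4 lines, 0 of 56 member tests passed edgeR's test, 6 had an unadjusted p under 0.05 and 0 passed DESeq2, with log2 changes of -0.38 to 0.45. The smallest adjusted p was 0.144. Of all tested genes, 10.6% passed at 5 against 4 weeks in chr4-2, 0.23% in qem2, 11.3% in quintuple and 4.75% in WT. At 6 against 5 weeks the shares were 0.291%, 0.0511%, 1.92% and 0.353% in the same order of lines. These later shares depend on single libraries. At 5 against 4 weeks in qem2 45 genes were called, 2108 without qem2 4 weeks replicate 1 and 0 without replicate 3 of that week.

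**Figure D2:**
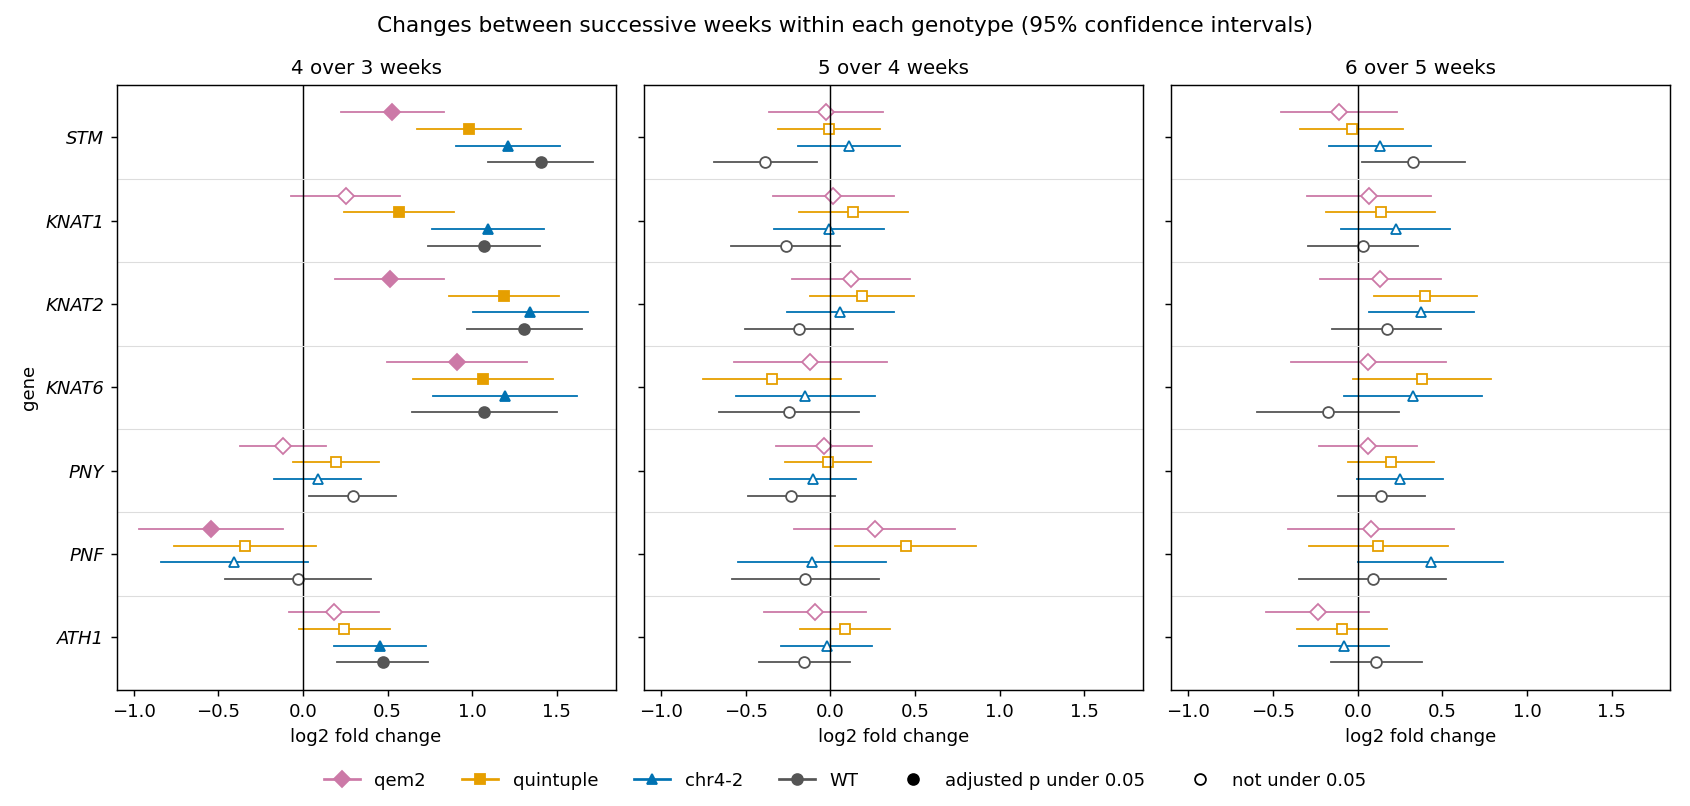
Log2 fold change of each member for 4 against 3, 5 against 4 and 6 against 5 weeks in the 4 lines, with 95% intervals and filled points where adjusted p is under 0.05. The filled points are all at 4 against 3 weeks and, PNF in qem2 aside (log2 -0.54), lie above 0.

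Over the whole course, 6 against 3 weeks, 5 of 7 members rose in chr4-2, 3 in qem2, 5 in quintuple and 5 in WT, where 45.9%, 35.5%, 41.5% and 38% of tested genes passed. KNAT2 rose by log2 1.78 in chr4-2, 0.77 in qem2, 1.77 in quintuple and 1.30 in WT (adjusted p = 1.48e-10, 0.000348, 1.08e-10 and 2e-07). STM rose by log2 1.45, 0.39, 0.94 and 1.35 in the same order (2.29e-09, 0.0413, 6.98e-06 and 1.88e-08). KNAT6 rose by log2 1.37, 0.86, 1.1 and 0.65 (2.54e-06, 0.00156, 6.15e-05 and 0.015). KNAT1 rose by log2 1.31 in chr4-2, 0.84 in quintuple and 0.84 in WT (7.37e-08, 7.99e-05 and 0.000117), and was at log2 0.34 in qem2 (adjusted p = 0.102). The smallest of these values for STM and KNAT1 were those of qem2, whose 3-week levels were the highest.

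Among the BELL genes PNY rose at 6 against 3 weeks in quintuple, with 59.4, 65.0 and 75.0 CPM at 6 weeks and 51.6, 54.7 and 47.2 CPM at 3 weeks (log2 0.38, adjusted p = 0.0153). ATH1 rose in WT, with 132, 114 and 124 CPM at 6 weeks and 91.6, 88.1 and 95.2 CPM at 3 weeks (log2 0.43, adjusted p = 0.0108). It also rose in chr4-2, with 123, 124 and 122 CPM at 6 weeks and 83.5, 98.3 and 106 CPM at 3 weeks (log2 0.35, adjusted p = 0.0285). None of these 3 pairs of groups overlapped. PNF stayed between log2 -0.20 and 0.22 over the 4 lines and did not pass in any. Several of the smaller calls rest on single libraries. PNY stood at log2 0.24 in chr4-2 (adjusted p = 0.125) and passed without chr4-2 3 weeks replicate 1 (0.0244 to 0.426). The PNY call in quintuple ended without replicate 3 of 3 or of 6 weeks (0.00982 to 0.116), and that of ATH1 in chr4-2 ended without 3 weeks replicate 1 or any 6-week library (0.0214 to 0.136). KNAT6 and ATH1 in WT were no longer called without WT 6 weeks replicate 1 (0.0109 to 0.0815 and 0.0117 to 0.0536). The STM call in qem2 ended without any of its 6 libraries other than 6 weeks replicate 2 (0.0306 to 0.193), without any of 12 libraries of other groups, with RLE size factors (0.0502) and with no filter on low counts (0.0575).

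Markers of other tissues moved over the same weeks. The summed CPM of 4 leaf mesophyll markers ran from 3102 to 7689 in 3-week libraries, 2279 to 4570 at 4 weeks and 1860 to 3287 at 6 weeks. At 4 against 3 weeks 3 of the 4 fell in chr4-2, 2 in qem2, 3 in quintuple and 3 in WT. The shares of all tested genes that passed in that step were 29.9%, 43.9%, 45.4% and 34.9% in the same order. The sum of 6 vascular markers was 167 to 257 CPM at 3 weeks, 167 to 341 at 4 weeks and 37.1 to 90.5 at 6 weeks. The 3 shoot meristem markers WUS, CLV3 and CLV1 summed to 61.8 to 87.5 CPM at 3 weeks, 59.7 to 133 at 4 weeks and 46.5 to 92.3 at 6 weeks. At 4 against 3 weeks 2 of these 3 rose in chr4-2, 1 in quintuple and 1 in WT, and 1 fell in qem2. Root markers summed to 0.409 to 4.47 CPM and floral organ markers to at most 0.934 CPM, outside quintuple at 6 weeks, where they reached 5.73. The part of these tissues in the KNOX values was not tested.

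The chr4-2 apices were compared with WT to see what the CHR4 insertion does to these genes. STM was the member higher at 5 weeks, with 139 ± 26.9 CPM in chr4-2 and 91.2 ± 13.9 CPM in WT (log2 0.61, SE 0.15, 95% interval 0.31 to 0.92, adjusted p = 0.0154). All 3 chr4-2 libraries were above the WT libraries, and 1 of 7 members passed where 2.32% of tested genes did. The call ended without WT 5 weeks replicate 3, the low library named above, or chr4-2 5 weeks replicate 2, the highest (adjusted p 0.0148 to 0.25 over the 6 fits), and in the fit of the 6 libraries alone (0.205). The authors' deposited table for 5 weeks lists 692 genes and none of the 7 members. WUS, which marks the organizing centre of the meristem, rose in the same comparison, with 0.721 to 1.2 CPM in chr4-2 and 0 to 0.344 CPM in WT (log2 2.49, adjusted p = 0.014). It was the 1 of 3 shoot meristem markers called there, and the sum of the 3 was 73.5 to 85.5 CPM in chr4-2 and 62.3 to 92.9 CPM in WT. Its part in the STM value was not tested. At 6 weeks STM had 153 ± 20.1 CPM in chr4-2 and 114 ± 5.93 CPM in WT, again with no overlap, but missed the threshold (log2 0.42, 95% interval 0.11 to 0.72, adjusted p = 0.125).

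KNAT6 was the member that rose in chr4-2 at 6 weeks, with 50.9 ± 8.94 CPM in chr4-2 and 28.5 ± 4.57 CPM in WT (log2 0.82, SE 0.20, 95% interval 0.41 to 1.24, adjusted p = 0.0133). The lowest chr4-2 library, at 44.7 CPM, was above the highest WT library, at 32.6 CPM, and 1 of 7 members passed where 4.01% of tested genes did. Leaving out WT 6 weeks replicate 2 or 3 or chr4-2 6 weeks replicate 1 ended the call (0.0193 to 0.104). The authors' deposited table for 6 weeks lists KNAT6 as well, at log2 0.824 with an adjusted p of 0.000138, and no other member. KNAT2 and KNAT1 stood at log2 0.49 and 0.38 at 6 weeks (adjusted p = 0.0676 and 0.212). The KNOX median was log2 0.45, the BELL median 0.23 and that of all tested genes 0.00. ATH1 did not move with them, with 123, 124 and 122 CPM in chr4-2 and 132, 114 and 124 CPM in WT (log2 -0.01, 95% interval -0.27 to 0.26).

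At 3 and 4 weeks 0 of 14 member tests of chr4-2 against WT passed edgeR's test, 2 had an unadjusted p under 0.05 (STM and PNY at 3 weeks) and 0 passed DESeq2, where 0.818% and 1.09% of tested genes passed. STM at 3 weeks had 63.0, 51.5 and 53.6 CPM in chr4-2, against 41.1, 46.6 and 46.9 CPM in WT, which do not overlap (log2 0.31, adjusted p = 0.62). In the mean of the 4 weekly effects 3 of 7 members rose, where 11.9% of tested genes passed. STM was at log2 0.37 (95% interval 0.21 to 0.52, adjusted p = 0.00064), KNAT6 at 0.37 (0.16 to 0.58, adjusted p = 0.0146) and PNY at 0.22 (0.09 to 0.35, adjusted p = 0.0152). WUS was higher in that mean too (log2 0.92, adjusted p = 0.0446), and its part was not tested. The 3 member calls were kept in each fit that left out 1 of their 24 libraries, and PNY missed the threshold in the fit of these libraries alone (adjusted p = 0.0525).

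The qem2 apices were compared with quintuple, the background in which qem2 was found. STM rose at 3 weeks, with 77.5 ± 4.78 CPM in qem2 and 49.8 ± 3.42 CPM in quintuple (log2 0.64, SE 0.15, 95% interval 0.33 to 0.94, adjusted p = 0.0228). All 3 qem2 libraries were above the quintuple libraries, and 1 of 7 members passed where 1.05% of tested genes did. The call is close to the threshold, since it ended without any 1 of the 6 libraries other than qem2 3 weeks replicate 1 (adjusted p 0.0448 to 0.139). KNAT2 had 11.3 ± 0.968 CPM in qem2 and 7.60 ± 0.456 CPM in quintuple (log2 0.57, adjusted p = 0.0935), and KNAT1 stood at log2 0.44 (adjusted p = 0.255). In the fit of these 6 libraries alone KNAT2 and KNAT1 were called (adjusted p = 0.0282 and 0.0143). For the 4 KNOX genes and PNY every 3-week library of qem2 was above every one of quintuple. Only STM of these passed the test over 47 libraries, and how many of all tested genes separate so was not counted. The medians were log2 0.51 for the KNOX genes, 0.20 for the BELL genes and 0.00 for all tested genes.

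The authors' deposited table for qem2 against quintuple at 3 weeks lists STM at log2 0.641 (adjusted p of 0.00142) and KNAT2 at log2 0.573 (adjusted p of 0.0201). At 6 weeks the authors' deposited table lists KNAT2 at log2 -0.450 (adjusted p of 0.0381). In the fit over 47 libraries KNAT2 at 6 weeks had 19.9 ± 4.20 CPM in qem2 and 26.1 ± 2.33 CPM in quintuple, which overlap, and missed the threshold (log2 -0.43, 95% interval -0.75 to -0.12, adjusted p = 0.14). At 4, 5 and 6 weeks 0 of 21 member tests passed edgeR's test, 1 had an unadjusted p under 0.05 (KNAT2 at 6 weeks) and 0 passed DESeq2, where 1.23%, 1.41% and 2.86% of tested genes passed. PNY and PNF were lower in all qem2 libraries at 6 weeks without passing (log2 -0.21 and -0.41, adjusted p = 0.458 and 0.368). STM was the 1 of 7 members higher in the mean of the 4 weekly effects (log2 0.27, 95% interval 0.11 to 0.43, adjusted p = 0.0175), where 11.1% of tested genes passed. That call ended without qem2 5 weeks replicate 1 (0.00556 to 0.0755 over the fits without 1 library). The shoot meristem marker CLV3 was lower in qem2 in that mean (log2 -0.88, adjusted p = 0.0267). At 6 weeks the floral organ marker AP1 was lower in qem2 (log2 -5.60, adjusted p = 0.0463). Floral organ markers summed there to 0.204 to 0.362 CPM in qem2 and 0.0787 to 5.73 CPM in quintuple. The part of these tissues in the member values was not tested.

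The quintuple apices were compared with WT to see what the 5 mutations that quintuple shares with qem2 do to these genes. KNAT2 was the member with the clearest difference, at 6 weeks, with 26.1 ± 2.33 CPM in quintuple and 15.6 ± 1.72 CPM in WT (log2 0.73, SE 0.15, 95% interval 0.42 to 1.05, adjusted p = 0.00166). Its groups did not overlap, and the call held without any 1 of the 6 libraries (0.0032 to 0.0199). KNAT6 also rose at 6 weeks, with 49.9 ± 7.62 CPM in quintuple and 28.5 ± 4.57 CPM in WT (log2 0.79, SE 0.20, 95% interval 0.38 to 1.21, adjusted p = 0.0126), and every quintuple library was above every WT library. This call ended without WT 6 weeks replicate 2 or quintuple 6 weeks replicate 2 or 3 (0.012 to 0.0761). Together 2 of 7 members passed at 6 weeks, where 6.29% of tested genes did. The KNOX median was log2 0.47, the BELL median 0.40 and the median of all tested genes 0.00. STM, in contrast, had 85.9, 86.9 and 113 CPM in quintuple and 113, 121 and 109 CPM in WT (log2 -0.26, adjusted p = 0.375).

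PNY at 6 weeks had 59.4, 65.0 and 75.0 CPM in quintuple and 49.0, 57.6 and 45.6 CPM in WT, which do not overlap (log2 0.40, adjusted p = 0.0508). It passed with the replicate number as a block (0.0439) and in DESeq2 (0.041), and without WT 6 weeks replicate 2 or quintuple 6 weeks replicate 1 (0.0298 to 0.263 over the 6 fits). At 5 weeks KNAT2 had 19.8 ± 1.27 CPM in quintuple and 14.0 ± 2.17 CPM in WT (log2 0.51, SE 0.16, 95% interval 0.19 to 0.82, adjusted p = 0.0399), 1 of 7 members where 6.86% of tested genes passed. That call ended without any 1 of its 6 libraries (0.0563 to 0.167), without any of 14 others, with no filter on low counts (0.0522) and in the fit of the 6 libraries alone (0.131). At 3 and 4 weeks 0 of 14 member tests passed edgeR's test, 0 had an unadjusted p under 0.05 and 0 passed DESeq2, where 0.404% and 12.4% of tested genes passed. In the mean of the weekly effects KNAT2, KNAT6 and PNY were higher in quintuple, 3 of 7 members where 22.6% of tested genes passed. They stood at log2 0.41 (95% interval 0.25 to 0.57), 0.43 (0.22 to 0.64) and 0.27 (0.14 to 0.40), with adjusted p = 0.000235, 0.00231 and 0.00165.

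Markers moved in the same comparisons of quintuple with WT. Shares of all tested genes that passed were 6.86% at 5 weeks, 6.29% at 6 weeks and 22.6% in the mean. At 6 weeks all 3 tested floral organ markers rose, with AP1 at 0 to 3.04 CPM, AP3 at 0 to 1.31 CPM and PI at 0.0787 to 0.937 CPM in quintuple, and each of them at 0 in the WT libraries (adjusted p = 0.00794, 0.0307 and 0.0151). CLV1, a receptor kinase gene of the meristem, fell at 6 weeks (log2 -0.51, adjusted p = 0.0376), and so did the root marker WOX5 (log2 -1.83, adjusted p = 0.00263). At 5 weeks CLV1 and the xylem genes XCP1 and VND6 fell (log2 -0.56, -1.23 and -1.57, adjusted p = 0.0204, 0.0341 and 0.0159), and the phloem gene SUC2 rose (log2 0.63, adjusted p = 0.0404). In the mean of the weekly effects WUS, PI and SUC2 were higher and CLV1, XCP1 and WOX5 lower. The part of these tissues in the KNAT2, KNAT6 and PNY values was not tested.

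**Figure D3:**
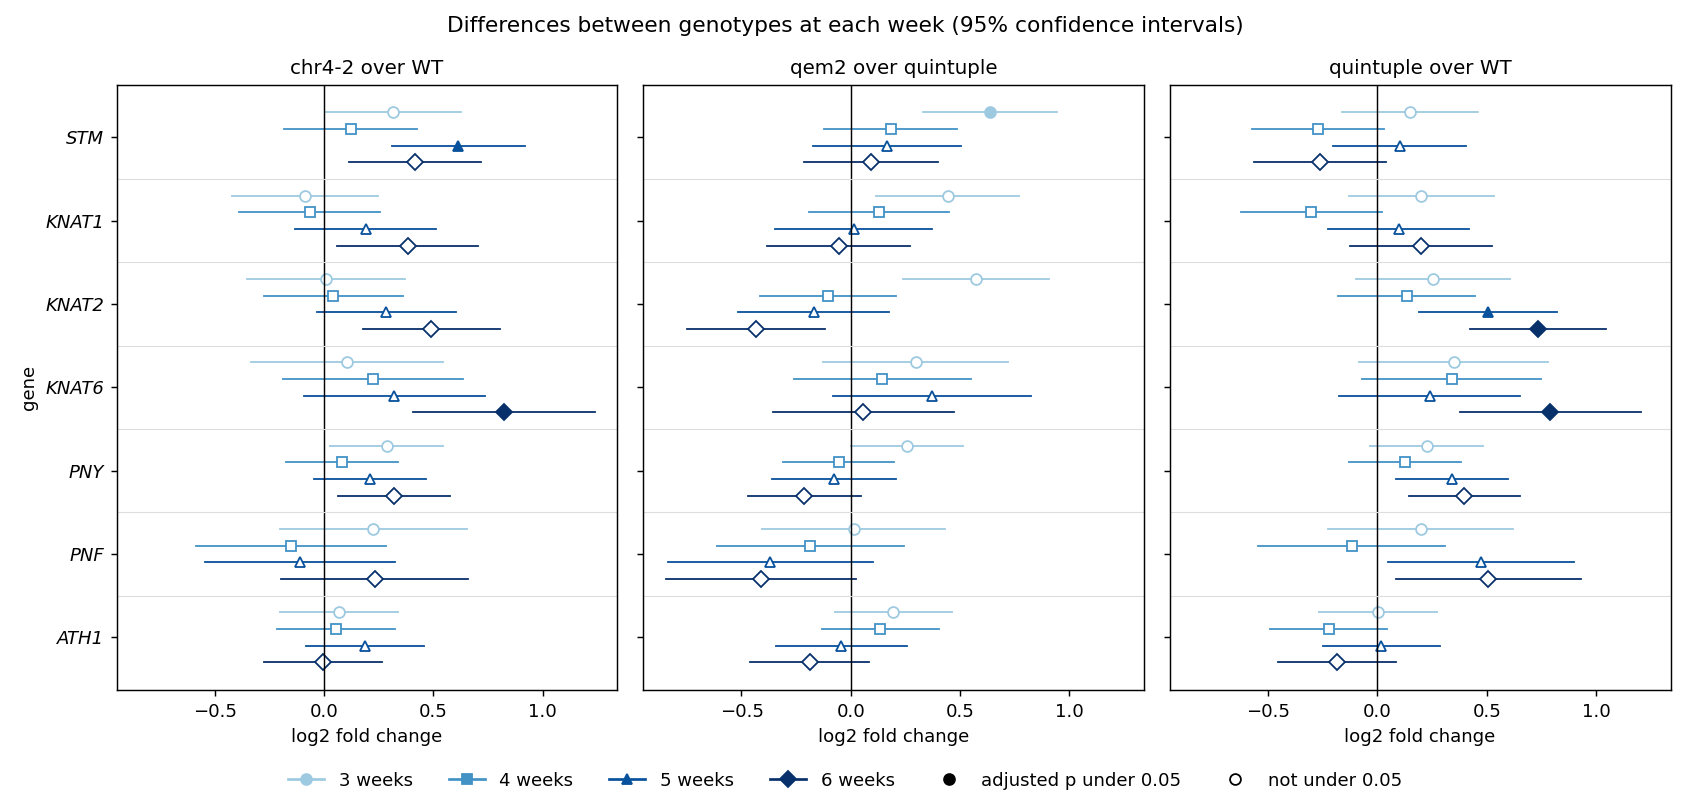
Log2 fold change of each member in chr4-2 over WT, qem2 over quintuple and quintuple over WT at 3, 4, 5 and 6 weeks, with 95% intervals and filled points where adjusted p is under 0.05. The filled points are STM in qem2 at 3 weeks and in chr4-2 at 5 weeks, KNAT6 in chr4-2 and in quintuple at 6 weeks, and KNAT2 in quintuple at 5 and 6 weeks.

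The chr4-2 and quintuple comparisons share the WT libraries, so that the KNAT6 values of both at 6 weeks rest on the same 3 low WT values. Side by side, KNAT6 at 6 weeks averaged 51.9 ± 11.6 CPM in qem2, 49.9 ± 7.62 in quintuple, 50.9 ± 8.94 in chr4-2 and 28.5 ± 4.57 in WT. KNAT2 at 6 weeks averaged 19.9 ± 4.20 CPM in qem2, 26.1 ± 2.33 in quintuple, 22.0 ± 1.91 in chr4-2 and 15.6 ± 1.72 in WT.

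Whether the effects differ was tested directly. For qem2 over quintuple minus chr4-2 over WT the shares of tested genes that passed were 0.0153%, 0.0204%, 0.0307% and 0.25% at 3, 4, 5 and 6 weeks. For the 6-week effect minus the 3-week effect they were 0.133% for chr4-2 over WT, 0.107% for qem2 over quintuple and 1.04% for quintuple over WT. Of the 49 member tests of these 7 differences 0 passed edgeR's test, 15 had an unadjusted p under 0.05 and 2 passed DESeq2. The 2 that DESeq2 called both concern KNAT2, whose change in qem2 over quintuple was 0.92 lower on the log2 scale than that in chr4-2 over WT at 6 weeks (difference -0.92, 95% interval -1.37 to -0.48, adjusted p = 0.0584 in edgeR and 0.0225 in DESeq2). Its qem2 over quintuple effect at 6 weeks minus that at 3 weeks was -1.01 (95% interval -1.47 to -0.54, adjusted p = 0.0639 in edgeR and 0.0234 in DESeq2). Both passed edgeR's test without qem2 6 weeks replicate 1, the shallowest library. Over the fits without 1 of the 12 libraries compared, adjusted p ran from 0.0355 to 0.219 and from 0.0263 to 0.226. The weekly difference for STM in qem2 over quintuple, 6 minus 3 weeks, was -0.54 (adjusted p = 0.469). The 3-week effect on STM is thus not shown to differ from that at 6 weeks, and it was not tested against 4 or 5 weeks. The 6 minus 3 weeks difference for KNAT6 in chr4-2 over WT was 0.72 (adjusted p = 0.571).

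The balance of the family was described by the summed KNOX level over the summed BELL level, both per kilobase. At 3 weeks the ratio was 1.39 ± 0.0593 in qem2, 1.13 ± 0.0927 in quintuple, 1.03 ± 0.0808 in chr4-2 and 1.05 ± 0.0417 in WT. At 4 weeks it was 1.98 in qem2, 1.86 in quintuple, 1.94 in chr4-2 and 1.88 in WT. At 6 weeks it was 2.19 ± 0.494 in qem2, 1.86 ± 0.0865 in quintuple, 2.26 ± 0.295 in chr4-2 and 1.75 ± 0.0340 in WT. The group means were 1.03 to 1.39 at 3 weeks and 1.71 to 2.26 at the later weeks. STM made up 38.0% of the KNOX sum in quintuple at 6 weeks and 50.9% in WT at 6 weeks, the lowest and highest of the 16 groups.

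**Figure D4:**
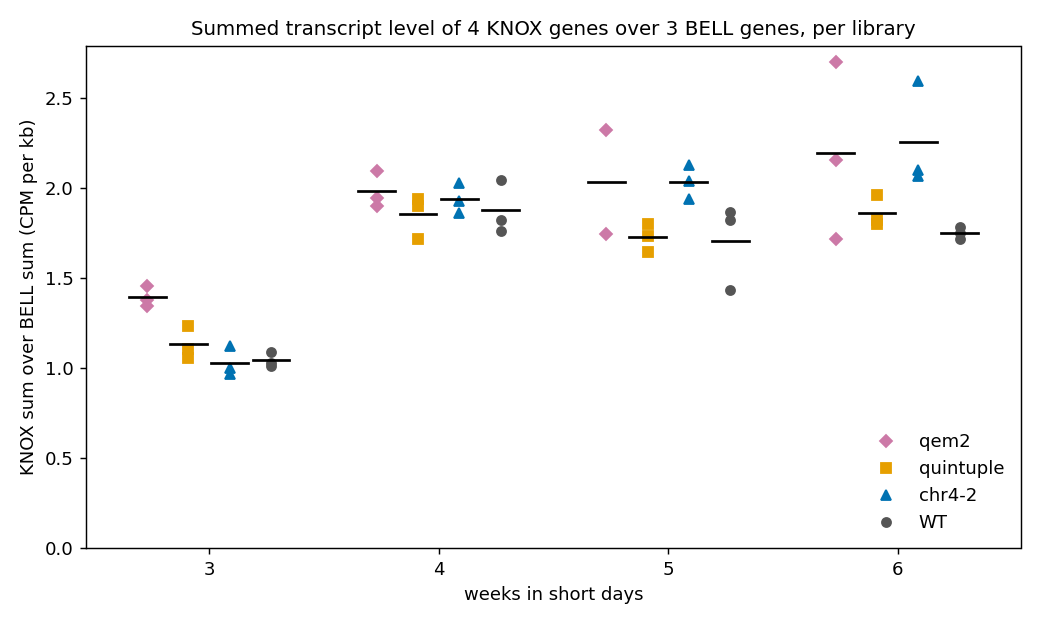
Ratio of the summed KNOX level to the summed BELL level, both in CPM per kb of exon, by weeks in short days for qem2, quintuple, chr4-2 and WT, with 1 point per library and a black bar at each group mean. All groups of 4 weeks and later average 1.71 or more, and the highest 3-week group is qem2 at 1.39 ± 0.0593.

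Across the 16 group means of log2 CPM the KNOX genes moved together, with Pearson r of 0.93 between STM and KNAT1, 0.95 between KNAT1 and KNAT2, 0.91 between KNAT2 and KNAT6 and 0.82 between STM and KNAT6. ATH1 followed STM (r = 0.87), PNY less so (r = 0.45), and PNF ran the other way (r = -0.41). Between the BELL genes r was 0.39 for PNY and PNF, 0.20 for PNY and ATH1 and -0.48 for PNF and ATH1. These 16 points share lines and weeks and 3-week groups stand apart from the rest, so the values are descriptions. Among the other tested genes the 3 most like STM over the 16 groups were CYP705A21 (r = 0.958), AT1G54840 (0.954) and AT4G14900 (0.952). Those most like KNAT1 were AT1G49475 (0.951), AT4G31690 (0.940) and AT5G15120 (0.939). For KNAT2 they were AT4G32295 (0.965), AT5G51610 (0.958) and ZFHD1 (0.956), and for KNAT6 AT3G01590 (0.968), AT3G30300 (0.968) and AT4G13160 (0.958). The BELL genes had weaker matches for PNY (PPa2 0.863, AT3G23270 0.840, WIP4 0.822) and PNF (AT1G16270 0.842, KINESIN-13A 0.835, GulLO4 0.831), and stronger ones for ATH1 (AT5G18040 0.950, UBC18 0.939, LRP1 0.937).

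Other genes of the pathway were read from 4 lists, namely 15 other TALE genes, 7 regulators of KNOX genes, 4 hormone genes that KNOX proteins act on and 2 OVATE genes. Among the hormone genes GA20OX1, a gibberellin synthesis gene that KNOX proteins repress, fell at 4 against 3 weeks in all 4 lines (log2 -2.06 in chr4-2, -2.24 in qem2, -2.02 in quintuple and -1.81 in WT). GA2OX4, which inactivates gibberellin, rose in all 4 (log2 2.25, 2.47, 2.59 and 2.22 in the same order), and these calls of both genes held without any 1 library of their groups. GA2OX2, of the same function, rose in qem2 (log2 0.79) and quintuple (log2 0.90). The GA2OX2 call ended in qem2 without replicate 2 or 3 of either week (adjusted p 0.00885 to 0.122) and in quintuple without 4 weeks replicate 3 (0.00522 to 0.0925). At 6 against 3 weeks GA20OX1 passed in chr4-2 and WT (adjusted p = 0.000499 and 0.000367) but not in qem2 or quintuple. GA2OX4 passed there in chr4-2, quintuple and WT (2.71e-05, 0.00367 and 0.00447) but not in qem2. In that span 45.9% of all tested genes passed in chr4-2, 35.5% in qem2, 41.5% in quintuple and 38% in WT. The part of the KNOX genes in these values was not tested. IPT7, a cytokinin synthesis gene that KNOX proteins activate, had too few reads to be tested. At 4 against 3 weeks 29.9% of all tested genes passed in chr4-2, 43.9% in qem2, 45.4% in quintuple and 34.9% in WT. Of the 15 other TALE genes 4 rose and 1 fell in that step in chr4-2, 4 and 5 in qem2, 5 and 2 in quintuple and 3 and 1 in WT. KNATM, a KNOX gene with no homeodomain, was among those that rose in all 4 lines (log2 0.77, 1.09, 1.13 and 0.78 in the order chr4-2, qem2, quintuple and WT). Its call ended in chr4-2 without 3 weeks replicate 1 or 2 or 4 weeks replicate 2 or 3 (0.00649 to 0.0879) and in the fit of these 6 libraries alone (0.114), and in WT without 3 weeks replicate 2 or 3 or 4 weeks replicate 3 (0.0103 to 0.11). The medians of the other TALE genes were 0.04, 0.23, 0.21 and 0.09, against 0.02, 0.01, 0.02 and 0.03 for all tested genes, in the order chr4-2, qem2, quintuple and WT.

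Of the 7 regulators 1 rose and 2 fell at 4 against 3 weeks in chr4-2, 1 and 3 in qem2, 2 and 3 in quintuple and 1 and 1 in WT. In the same order 29.9%, 43.9%, 45.4% and 34.9% of all tested genes passed. BOP1, a boundary gene that keeps KNOX genes off in leaves, fell in all 4 lines (log2 -1.13, -0.82, -1.23 and -1.06 in the order chr4-2, qem2, quintuple and WT). Over 6 against 3 weeks CUC1, a boundary gene that activates STM, rose in all 4 lines (log2 1.49, 1.05, 1.91 and 1.09), and BOP1 fell (log2 -1.71, -1.46, -1.46 and -1.74). Of all tested genes 45.9%, 35.5%, 41.5% and 38% passed in this span, in the same order. The BOP1 calls of both spans and the CUC1 calls of the longer one held without any 1 library of their groups. Other regulators were called at 6 against 3 weeks too. AS1 was higher in chr4-2 and qem2 (log2 0.24 and 0.42, adjusted p = 0.034 and 0.000798). CUC2 was lower in qem2 (log2 -0.87, adjusted p = 0.00193). AS2 was lower in chr4-2 (log2 -0.74), and BOP2 in chr4-2 and qem2 (log2 -0.89 and -0.73). Their part in the KNOX values was not tested. CUC1 was also higher in chr4-2 than in WT at 6 weeks, with 11.8 ± 0.246 CPM in chr4-2 and 4.61 ± 0.278 CPM in WT (log2 1.37, adjusted p = 3.45e-05). BOP2 rose there by log2 0.71 (adjusted p = 0.00164). These were 2 of the 7 regulators, where 4.01% of tested genes passed, and both were called without any 1 of the 6 libraries. At 3 and 5 weeks CUC1 was the 1 of 7 regulators higher in chr4-2 (log2 0.97 and 0.95, adjusted p = 0.0388 and 0.00582), where 0.818% and 2.32% of tested genes passed. The 3-week call ended without any 1 of its libraries (0.0673 to 0.204) and the 5-week call without WT 5 weeks replicate 1 or chr4-2 5 weeks replicate 2 (0.00889 to 0.109), and both ended in fits of the compared libraries alone (0.133 and 0.0917). In qem2 against quintuple CUC1 rose at 3 weeks (log2 0.93, adjusted p = 0.0331), and this call too ended without any 1 of its 6 libraries (0.0593 to 0.18). The part of CUC1 in the STM values was not tested. At 6 weeks CUC2, the paralog of CUC1, had 4.20 ± 1.32 CPM in qem2 and 9.65 ± 2.22 CPM in quintuple (log2 -1.13, adjusted p = 0.00105). The BELL gene BLH11 fell (log2 -1.45, adjusted p = 0.0174). CUC2 missed the threshold in the fit of these 6 libraries alone (adjusted p = 0.13), and BLH11 did so there (0.13) and without quintuple 6 weeks replicate 2 or qem2 6 weeks replicate 3 (0.0258 to 0.19). In the mean of the 4 weekly effects of qem2 over quintuple 11.1% of tested genes passed. CUC1 was higher in it (log2 0.49), and BLH11 and CUC2 were lower (log2 -0.91 and -0.53). In that of chr4-2 over WT 11.9% passed. There CUC1, BOP2 and BLH7 were higher (log2 0.89, 0.28 and 0.20) and BLH11 lower (log2 -0.72). Each of these calls in the means held without any 1 library of its groups.

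In quintuple against WT at 4 weeks 12.4% of all tested genes passed. There 4 of the 15 other TALE genes rose and 2 fell, and 2 of the 7 regulators fell. Among the 3 tested hormone genes 2 rose, GA2OX2 (log2 2.02, adjusted p = 3.37e-05) and GA2OX4 (log2 1.32). Of these calls the one of GA2OX2 held without any 1 of the 6 libraries, while GA2OX4 ended without WT 4 weeks replicate 1 or 3 or quintuple 4 weeks replicate 2 or 3 (0.0162 to 0.188) and in the fit of these libraries alone (0.136). The 8 calls of the TALE genes and regulators ended without 2 to 5 of the 6 libraries each, WT 4 weeks replicate 2 and quintuple 4 weeks replicate 3 among them. OFP1, of the OVATE family that binds TALE proteins, fell at 4, 5 and 6 weeks (log2 -1.31, -1.18 and -1.58), and missed the threshold at 4 and 5 weeks in fits of the compared libraries alone (adjusted p = 0.0603 and 0.0587). BLH1 fell at 5 weeks (log2 -1.24) and SAW2, a BELL gene of leaf margins, at 6 weeks (log2 -0.67). The BLH1 call ended without WT 5 weeks replicate 2 or quintuple 5 weeks replicate 3 (0.000106 to 0.104) and in the fit of these 6 libraries alone (0.262). CUC1 and BOP2 rose at 6 weeks (log2 0.96 and 0.99, adjusted p = 0.00307 and 1.26e-05), and GA2OX2 rose by log2 1.13 (adjusted p = 0.0151). GA2OX2 was not called without WT 6 weeks replicate 3 or quintuple 6 weeks replicate 2 or 3 (0.00968 to 0.0847). In the test of differences at 6 weeks the effect of qem2 over quintuple on CUC1 and BOP2 was lower than that of chr4-2 over WT (log2 -1.30 and -0.90, adjusted p = 0.0478 and 0.0474). These calls lie at the threshold and ended without any of 11 and of 9 of the 12 libraries compared, with adjusted p of up to 0.172 and 0.161. Both also ended with RLE size factors and with no filter on low counts.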

How the data were processed

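Read counts per gene of shoot apices of qem2, quintuple, chr4-2 and WT at 3, 4, 5 and 6 weeks of short days were analysed. The deposited table gives whole-number counts of reads for each gene, with 48 library columns, per the file headers. TopHat2, SAMtools, HTSeq, DESeq2 and the TAIR10 build are named per the submitters' processing notes, with no settings. The counting's strand setting is not given in the sources used here. The log2 fold changes in the authors' deposited tables were copied as given, and so were the p-value columns that the authors deposited. Per the deposited description sheet the quintuple tables hold only genes with a fold change over 2.

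The column that repeats another was left out, decided after the data were seen. The other 47 columns, in 16 groups, entered 1 quasi-likelihood fit in edgeR 4.0.16 (limma 3.58.1, R 4.3.3; TMM, filterByExpr, robust) with Benjamini-Hochberg adjustment over 19566 genes per comparison and a threshold of 0.05. The biological coefficient of variation was 14.7%. Each library held at least 31 reads of PNF, the scarcest member. Exon lengths, promoters and names came from RefSeq (TAIR10.1), which matched 26719 identifiers (98.2%), and no coordinates were taken from the authors' build. Libraries were labelled independent biological replicates, and PCR reads carry no stated molecular identifiers.

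The 7 members and the lists were chosen with earlier results of these data known. All members were tested in every comparison, and each called member is named. Of the other lists, counts are given for some comparisons and some of the called genes are named. For each member the 3 genes of highest correlation are named. Other settings tried were RLE size factors, tests with no low-count filter, DESeq2 1.42.0, the compared libraries alone, replicate number as a block, a minimum log2 change of 1 in either direction, and each library left out. Replicate numbers were checked as pairs by the correlation of residuals. In 5 of the 12 comparisons of lines within a week each of the 3 correlations was above 0.1 (4 and 5 weeks for chr4-2, 3 and 4 weeks for qem2, 5 weeks for quintuple), and the labels state no pairing. The procedure was tested on simulated data.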

Additional observations from a re-analysis of the deposited data

How the results depend on the processing

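Of the member tests called under any setting, 62 in all, each kept its sign under every setting run. The counts of members called were 5 of 35 tests in chr4-2 against WT, 2 of 35 in qem2 against quintuple, 6 of 35 in quintuple against WT, 18 of 28 at 6 against 3 weeks, 18 of 84 over the weekly steps and 0 of 49 for differences between effects. With 1 library left out they ran from 4 to 7, 1 to 2, 4 to 8, 16 to 18, 17 to 19 and 0 to 2 in that order. With the replicate block they were 5, 2, 7, 18, 18 and 0. In the 5 comparisons whose same-numbered libraries each correlated above 0.1 in residuals the block changed no call. The block fits replicate number as an effect shared by all lines and weeks. It cannot model pairs within a week, so it does not decide whether pairing matters. Fits of the compared libraries alone gave 3 calls in chr4-2 against WT and 4 in qem2 against quintuple, and DESeq2 gave 2 for the differences. With a minimum log2 change of 1 in either direction the first 3 counts were 0, that of 6 against 3 weeks was 8 and that of the weekly steps 10. RLE factors moved 1 of the 62 member tests and no filter 2. In the fit of the compared libraries alone 4 calls ended and 5 were added, PNF in the mean of quintuple against WT (adjusted p = 0.0312), KNAT1 in qem2 and ATH1 in quintuple at 6 against 3 weeks (0.0393 and 0.0309) among them; fewer libraries enter that fit.

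In the mean over 4 weeks KNAT2 in chr4-2 passed without chr4-2 3 weeks replicate 2 or 4 weeks replicate 1 (0.0298 to 0.242), and PNF in quintuple without quintuple 3 weeks replicate 1, WT 4 weeks replicate 2 or WT 6 weeks replicate 1 (0.0362 to 0.141). Of the 164 calls of other pathway genes 101 held without each library of the groups compared, 63 ended without at least 1, 39 ended under some other setting, and 0 changed sign under any setting. Counts over all genes moved more with the libraries fitted. Fitted alone against over 47 libraries, genes called numbered 60 and 214 in chr4-2 against WT at 4 weeks and 169 and 453 at 5 weeks. In qem2 against quintuple they were 1072 and 206 at 3 weeks, 26 and 240 at 4, 157 and 276 at 5 and 115 and 560 at 6 weeks. In quintuple against WT they were 184 and 79, 285 and 2417, and 186 and 1342 at 3, 4 and 5 weeks, and without quintuple 4 weeks replicate 3 the 4-week count was 356. With 1 library left out the lowest counts at 3, 4, 5 and 6 weeks were 102, 137, 255 and 451 in chr4-2 against WT, 105, 148, 107 and 236 in qem2 against quintuple, and 30, 356, 552 and 725 in quintuple against WT. Among the 15 comparisons of lines, RLE factors, no filter, the block and DESeq2 moved 0 of these counts by over 1.5 times. At 4 against 3 weeks chr4-2 had 5855 calls, 3618 without 4 weeks replicate 2 and 2933 fitted alone. At 5 against 4 weeks the count in chr4-2 was 2066, 764 without 5 weeks replicate 3 and 553 fitted alone. In quintuple it was 2218, 466 without 5 weeks replicate 2, 3761 without 4 weeks replicate 1 and 395 alone. In WT it was 929, 329 without 5 weeks replicate 3 and 47 alone. In qem2 45 calls became 331 in DESeq2 and 0 alone. At 6 against 5 weeks chr4-2 had 57 (3 to 116 with 1 library left out, 123 in DESeq2), qem2 10 (0 to 327, 135), quintuple 376 (88 to 481, 570) and WT 69 (0 to 452, 234; without the filter 37, with the block 115). The background shares beside the member counts depend on the libraries fitted, and the cause was not tested. Depth limits PNF most, with 31 reads in its lowest library.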
